A study of Daphnia magna with 36 samples.

Results

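The probes described here are the 150 whose log2 ratio was displaced most by ZnO nanoparticles (ZnO NP) at the LC25 while it stayed near 0 under ZnSO4 and under SiO nanoparticles (SiO NP) at the same toxicity level. They were chosen from 7680 probes of a Daphnia magna array. Arrays of one exposure number were averaged, each probe's median over the exposures of a group was taken, and 5664 probes (73.8%) measured in 3 or more exposures of each of the 3 LC25 groups were kept. Of these, 2364 had an absolute median of at least 0.2 under ZnO NP. Among them, 503 also reached that limit under ZnSO4 only, 567 under SiO NP only and 419 under both, which left 875 that reached it under ZnO NP alone (15.4% of the probes kept). The 150 with the largest absolute median, 2.65% of the probes kept, are called members. A total of 63 had a positive and 87 a negative ratio. With arrays scaled to one spread, 79 of the 150 chosen were positive. Values of all 3 LC25 groups chose the members, so everything at the LC25 is given as a description without a test.

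Daphnia magna is a freshwater crustacean widely used in toxicity testing. ZnO NP shed zinc ions in water, ZnSO4 is a soluble salt that supplies the same ion without a particle, and silica particles supply a particle without zinc. Zinc ions are handled in animal cells by transporters and by metallothioneins, small cysteine-rich proteins that bind metals. Probes carry plate positions as identifiers, which the files do not pair with genes, and none matched the gene table used here. No statement on genes or pathways was therefore made, and no probe sequence was used here.

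Each array set exposed RNA, labelled with Cy5 or Cy3, against RNA from an unexposed laboratory control labelled with the other dye. Every RNA sample was from 16 pooled whole adult females, 10 d old, after 24 h at 25 °C, so differences between tissues or single animals cannot be seen. ZnO NP were given at 9.0 mg/L (LC25, 4 exposures) and 2.2 mg/L (1/10 LC50, 4 exposures). ZnSO4 was given at 0.91 mg/L (LC25, 5 exposures) and 0.13 mg/L (1/10 LC50, 3 exposures), and SiO NP at 5.1 mg/L (LC25, 4 exposures) and 1.4 mg/L (1/10 LC50, 3 exposures). LC25 and LC50 are concentrations defined by the share of animals that die, so the groups match in toxicity and not in dose. Whether one control RNA served several groups is not given in the sources used here, and signs shared between groups are therefore set side by side only.

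The 6 groups held 36 arrays, which made up 23 exposures, 13 of them on dye-swapped pairs and 10 on single arrays. Between 46.7% and 90.5% of probes had a value on an array. Precision is limited by the number of arrays, since brightness was not used. The deposited values were read as log2 ratios already turned to one direction, and which RNA is the numerator is not given in the sources used here. Among 310 array pairs sharing a dye orientation, the correlation over probes was under -0.3 in 5 and reached -0.52 (median 0.0796). Among 307 pairs of opposite orientation it was under -0.3 in 16 and reached -0.563 (median -0.0197). These counts leave out swapped arrays of one exposure. At the LC25 such arrays correlated over all probes kept at 0.574 and 0.715 under ZnO NP and 0.55 under ZnSO4. Under SiO NP they correlated at -0.238 and 0.168. At 1/10 LC50 the correlations ran from -0.289 (SiO NP exposure 1) to 0.403 (ZnO NP exposure 2). The direction is therefore not settled. "Positive" and "negative" below refer to the sign as deposited. Turning every sign would make 87 members positive and 63 negative and alter no test. Reading the values as Cy5 over Cy3 instead left 678 probes under ZnO NP alone, and only 27 of the 150 chosen that way were among the members. Named values under that reading are given where their sign turned or they fell markedly toward 0.

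The limits of the rule cut through closely spaced values. The last member's absolute median under ZnO NP was 0.4145, and that of the next probe, left out, was 0.4144. The members' own median was 0.50 and the largest 2.06. Under ZnSO4 and SiO NP the members' absolute medians centred on 0.11 and 0.104, and the largest were 0.1997 and 0.1993, just inside the limit of 0.2. In 64 members one of these exceeded or equalled 0.15. On the other side, 570 probes had a median under ZnO NP at least as large as the smallest member's, and 420 of them were left out by the ZnSO4 or SiO NP limit. For 60 of those left out, both absolute medians were under 0.25. Between a member's absolute median under ZnO NP and the larger of its other absolute medians lay at least 0.23, with a median gap of 0.38 and a largest of 1.96. The same rule applied to the other toxicants gave 677 probes displaced under ZnSO4 alone (292 positive, 385 negative) and 683 under SiO NP alone (251 positive, 432 negative), beside 392 positive and 483 negative under ZnO NP alone.

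Within the ZnO NP group at the LC25 the members did not move as one. In exposure 1 the median of the positive members was 0.41 and that of the negative members -0.67. In exposure 2 these were 0.52 and -0.43, and in exposure 3 0.65 and -0.51. Exposure 4 gave 0.24 and -0.21, the values closest to 0 of the 4 for both signs. All probes kept had medians between -0.02 and 0.02 in these exposures. Exposure 4, a single array, held a value for 39 of 63 positive members and 28 of 87 negative members, against 62.8% of all probes kept. With missing values of all exposures counted, 63 members rested on 4 exposures and 87 on 3. The median SD between exposures was 0.35 for members and 0.27 for all probes kept.

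Every valued exposure had the same sign in 89 of 150 members (59.3%), against 28.0% of the probes kept. In the other 61 the ZnO NP exposures held both signs. Their median did not always rest on a majority of exposures: A5D22 had -1.03, 1.61, -1.03 and 0.18 (median -0.42). In 45 members (30.0%, against 6.07% of the probes kept) every valued ZnO NP exposure was past 0.2 in the direction of the median. By sign, 41 of 63 positive and 48 of 87 negative members kept 1 sign. Since the rule asks for a large median, these shares follow in part from the choice of members and are no test.

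Both exposures with dye-swapped arrays gave the members alike signs on the swapped arrays. In exposure 2, 39 of 41 positive and 51 of 56 negative members with a value on both arrays had one sign on both, against 63.8% of all probes kept. In exposure 3 this held for 39 of 42 and 45 of 50, against 73.0%. The remaining 53 members in exposure 2 and 57 in exposure 3 had a value on 1 array only, and a dye effect left in such a value could not be averaged out. These arrays took part in the choice as well, and the shares are descriptions.

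Positive members with the largest medians were P4DF7 and P2BF6. P4DF7 had 0.77, 1.12, 1.76 and 0.09 in ZnO NP exposures 1 to 4, a median of 0.95 (1.93-fold on the log2 reading) and a mean of 0.94 ± 0.70 (SD, n = 4). Under ZnSO4 at the LC25 it had -0.56, 0.20, 1.04, 1.63 and 0.09, so 2 of the 5 exposures lay above the ZnO NP median and the groups overlapped almost fully. Its SiO NP exposures at the LC25 ran from -0.37 to 0.53, overlapping the lowest ZnO NP value. P2BF6 had 0.42, 1.27, 1.57 and 0.17 under ZnO NP (median 0.85, 1.80-fold; mean 0.86 ± 0.67, SD, n = 4). Its ZnSO4 exposures 2 to 5 gave -0.41, 0.21, 0.98 and -0.58, again within reach of the ZnO NP values. Its 4 SiO NP exposures at the LC25 lay between 0.01 and 0.14, all below the lowest ZnO NP exposure. Read as Cy5 over Cy3, both probes had a median of 0.29, and without the arrays valued for under 60% of probes their medians were 1.55 and 1.27. P2BF6 had 0.42 without exposure 2, without exposure 3 and with 1 array per exposure.

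Among negative members P4AB6 and A6M17 had the largest absolute medians. P4AB6 had -2.16, -0.97 and -2.06 in exposures 1 to 3 of ZnO NP at the LC25 and no value in exposure 4 (median -2.06, 4.17-fold; mean -1.73 ± 0.66, SD, n = 3). Its swapped arrays stood at -1.15 and -0.79 in exposure 2 and at -2.07 and -2.05 in exposure 3. Both orientations were thus negative in both pairs as deposited, which is why the Cy5 over Cy3 reading gave a median of 0.01. ZnSO4 exposure 2 at the LC25 reached -1.47, past the weakest ZnO NP exposure, whereas the other 4 lay between -0.07 and 0.32. SiO NP exposures at the LC25 lay between -0.11 and 0.59.

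A6M17 had -2.0, -0.50 and -1.55 (median -1.55, 2.93-fold; mean -1.35 ± 0.77, SD, n = 3), with no value in exposure 4 and on 1 array only in exposure 3. Its 5 ZnSO4 exposures at the LC25 lay between -0.26 and 0.39 and its 4 SiO NP exposures between -0.11 and 0.59. The ZnO NP values of A6M17 thus overlapped neither group. Read as Cy5 over Cy3 its median was -0.30.

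Few members stood clear of the other toxicants exposure by exposure. Every ZnO NP exposure lay further out than every ZnSO4 exposure in 18 of 150 members (12%, against 3.80% of all probes kept). For SiO NP this held for 32 members (21.3%, against 5.65%), and for both at once for 8 members (5.33%, against 1.08%). The rule used these contrasts, so the shares say nothing beyond the choice. Conversely, at least 1 ZnSO4 exposure was as far out as the ZnO NP median in 67 members, 30 positive and 37 negative (44.7%, against 77.3% of all probes kept), and at least 1 SiO NP exposure in 32 (21.3%, against 70.7%). Most of the probes kept had smaller ZnO NP medians to be reached.

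Exposure 4 of ZnSO4 reached the ZnO NP median in 19 positive and 0 negative members, beside 28.6% of all probes kept, and exposure 2 in 3 positive and 20 negative members, beside 27.2%. In the remaining exposures the count was between 3 and 7 for positive and between 6 and 11 for negative members. In 131 members (87.3%, against 77.2% of all probes kept) a ZnSO4 exposure passed 0.2 in the sign of the ZnO NP median, and in 113 (75.3%, against 74.5%) one passed it in the opposite sign. For SiO NP these counts were 111 (74.0%, against 70.7%) and 78 (52.0%, against 46.3%). The opposite-sign share under ZnSO4 was thus close to that of the array as a whole. By exposure, positive members had ZnSO4 medians of -0.11, -0.01, 0.21, 0.08 and -0.15 in exposures 1 to 5, and negative members -0.07, -0.19, -0.11, 0.16 and 0.03. The signs of both sets thus changed between ZnSO4 exposures. Under SiO NP the medians ranged from 0.06 to 0.10 for positive and from -0.11 to 0.04 for negative members. The members' median SD between ZnSO4 exposures at the LC25 was 0.36, against 0.32 over all probes kept, and 0.26 against 0.22 under SiO NP.

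Of the 8 members without overlap, 3 were positive and 5 negative. The 2 of each sign with the widest gap were singled out after their values were seen. P13BE4 lay between 0.47 and 0.65 in 3 ZnO NP exposures, between -0.67 and 0.10 in 5 ZnSO4 exposures and between 0.08 and 0.22 in 3 SiO NP exposures. P6DD6 lay between 0.47 and 0.60 in 3 ZnO NP exposures, with ZnSO4 from -0.77 to 0.20 and SiO NP from -0.16 to 0.24. Neither had large values at the lower ZnO NP level, where P13BE4 averaged 0.12 ± 0.22 and P6DD6 0.19 ± 0.15 (SD, n = 4). The negative probes were A6M17, described above, and A6D15, which lay between -0.67 and -0.36 under ZnO NP, between -0.13 and 0.18 under ZnSO4 and between -0.23 and -0.09 under SiO NP. At 1/10 LC50 of ZnO NP A6D15 averaged 0.14 ± 0.30 (SD, n = 4), the sign opposite to that at the LC25.

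To see how far the choice itself sets these values, each ZnO NP exposure at the LC25 was left out of the rule in turn and the members chosen from the other 3 were read in it. Exposure 1 gave 0.126 for positive and -0.145 for negative members, with 66 of 102 and 30 of 42 in the sign of the choice. In exposure 2 the values were 0.262 (62 of 75) and -0.025 (40 of 75). Exposure 3 gave 0.457 (47 of 61) and -0.159 (63 of 88), and exposure 4 gave 0.0797 (37 of 56) and -0.00493 (21 of 42). The positive members of exposure 3 were the 1 set whose value left out was as large as in the exposures that chose it. In the choosing exposures the medians were 0.40 to 0.56 for positive and -0.43 to -0.56 for negative members. Between 45.9% and 54.1% of all probes kept had the sign in question in the exposure left out. The choice changed with the exposures: 52, 51, 53 and 94 of the members were chosen again without exposures 1, 2, 3 and 4, and 512, 498, 476 and 973 probes met the rule. The demand for 3 valued exposures removed most of the members lost without exposures 1, 2 and 3, since 66, 63, 64 and 146 of the members still met it, and 62, 62, 60 and 145 of those met the whole rule before the limit of 150. Read as Cy5 over Cy3, values in the exposures left out ran from -0.0935 to 0.00959 for positive and from -0.154 to 0.146 for negative members. With arrays scaled to one spread, the negative members' value in exposure 2 turned to 0.0114.

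The members' values at 1/10 LC50 took no part in the rule. Under ZnO NP at this level the median of the members' means was 0.09 for positive and -0.15 for negative members, against 0.01 for all probes kept and against 0.45 and -0.45 at the LC25. Of 61 positive members with a value, 44 (72.1%) had a positive mean, beside 52.2% of all probes kept, and of 85 negative members 65 (76.5%) had a negative mean, beside 47.8%. The medians by exposure were 0.06, 0.03, -0.07 and 0.32 for positive members and -0.11, -0.11, -0.02 and -0.24 for negative members. The highest and the lowest were both those of exposure 4, a single array with exposed RNA in Cy3. Without it the positive members' median was -0.02, so its sign rested on that array, and the negative members' median was -0.08. In the swapped exposures 1 and 2, 66.3% and 68.2% of the negative members with a value were negative. Among all probes kept these shares were 49.5% and 48.7%. Of the positive members 60.7% and 56.7% were positive, against 50.5% and 51.3% of all probes kept. On the swapped arrays of exposures 1 and 2, 61 and 88 of 135 members had one sign on both arrays (45.2% and 65.2%). Over all probes kept the shares were 40.9% and 54.5%, and the arrays correlated at -0.203 and 0.403. Read as Cy5 over Cy3, the medians of the same members were -0.10 and 0.08, the opposite signs.

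The other toxicants at 1/10 LC50 gave members the following values. Under ZnSO4 the median of the means was 0.04 for positive and -0.12 for negative members, with 43 of 62 (69.4%) positive and 64 of 85 (75.3%) negative, beside 56.6% and 43.4% of all probes kept. By exposure, positive members had medians of 0.10, -0.03 and 0.07 and negative members of -0.06, 0.00 and -0.14. When read as Cy5 over Cy3, a setting added after seeing the data for this group, the medians were -0.01 and 0.04, with 43.5% and 38.8% of members in the sign of the choice, beside 45.3% and 54.7% of all probes kept. Under SiO NP the medians were 0.02 and -0.01 (-0.01 and -0.02 when read as Cy5 over Cy3). There 33 of 61 positive members (54.1%) were above 0 and 43 of 84 negative members (51.2%) below 0. These shares were near the 51.3% and 48.7% of all probes kept. No difference between these groups' shares was tested.

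In the test of the lower levels, 144 members (60 positive, 84 negative) were among the 5495 probes tested, those measured in 2 or more exposures of each group. Under ZnO NP at 1/10 LC50 no member passed an adjusted p of 0.05 in limma's moderated test with Benjamini-Hochberg adjustment, nor did any of the 5495 probes (0.00%), and the lowest adjusted p of a member was 0.37. At an unadjusted p under 0.05, 12 members were called (8.33%), against 4.79% of all probes tested. They were 4 positive members, all with a positive ratio (6.67%, against 2.49% of probes called positive), and 8 negative members, all with a negative ratio (9.52%, against 2.29%). The median 95% confidence interval of a member's ratio extended 0.357 to either side, against 0.3 for all probes tested. Ratios of the size of the members' medians at this level were thus not detectable in this fit. It shared one estimate of spread and 1 dye term per probe over all 6 groups, so the LC25 values that chose the members entered the intervals. Through the dye term they also entered the fitted ratios and p-values of ZnO NP, which had single arrays at this level. Without the dye term 12 members were called (8.33%, against 5.08% of all probes), of which 9 were the same. With the 1/10 LC50 groups fitted alone, 19 members were called (13.2%, against 7.29% of all probes). The count was 3 among 52 members with a value in every exposure (5.77%, against 4.31% of all probes). It was 20 after scaling of the arrays (13.9%, against 7.59%) and 23 with array quality weights. The last count is given without the share of all probes, so it is no result about the members. The same holds for counts below that stand without such a share.

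P4AB6 had the lowest p under ZnO NP at 1/10 LC50. Its exposures gave -0.79, -1.68, -0.02 and -1.53, so that 3 of the 4 were clearly negative and exposure 3 lay at 0. The fitted ratio was -1.14 ± 0.30 (SE; limma, adjusted p = 0.37). Its adjusted p lay between 0.0244 and 0.999 across the alternatives, and it passed with all arrays fitted and the exposure as a random block (adjusted p = 0.0244) and with array quality weights (adjusted p = 0.036). In the random-block fit the estimated correlation between arrays of one exposure was -0.0165, so swapped arrays counted almost as separate replicates. The ratio of P4AB6 was 0.32 when read as Cy5 over Cy3. P9DE4, the second negative member by p, had -0.34, -0.19, -0.15 and -0.28, all of one sign, and a fitted ratio of -0.29 ± 0.11 (SE; limma, adjusted p = 0.949). Its ratio was -0.0155 when read as Cy5 over Cy3.

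The positive members with the lowest p at this level were P1AD12 and P13DE11. P1AD12 had 0.37, 0.31, -0.07 and 0.42, with exposure 3 alone below 0, and a fitted ratio of 0.34 ± 0.10 (SE; limma, adjusted p = 0.548). P13DE11 had 0.56, 0.47, 0.24 and 0.14, all positive, and a fitted ratio of 0.37 ± 0.13 (SE; limma, adjusted p = 0.812). With the exposure as a random block P13DE11 had 0.45 (adjusted p = 0.0434), within a range of 0.0434 to 1 over all alternatives. As for P4AB6, that fit counted swapped arrays almost as separate replicates. Without the dye term P1AD12 had 0.258 and P13DE11 0.354 (limma, adjusted p = 0.971 for each). When read as Cy5 over Cy3, their ratios were 0.000773 and 0.0214. Neither probe had a value in exposure 4 of ZnO NP at the LC25. There P1AD12 had 0.50, 0.22 and 0.50, and P13DE11 0.58, 0.17 and 0.49.

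Under ZnSO4 at 1/10 LC50 no member passed the adjusted threshold in limma, where 1 of all probes did (0.0182%). At an unadjusted p under 0.05, 5 members were called (3.47%, against 2.13%). A positive ratio was called in 1 member (0.694%, against 0.91% of all probes) and a negative ratio in 4 (2.78%, against 1.22%). Positive members held 1 call of each sign, and negative members held 3 calls, all with a negative ratio. P4AB6 was among them, with -0.09, -1.50 and -1.04 and a fitted ratio of -0.88 ± 0.32 (SE; limma, adjusted p = 1). It thus had 2 strongly negative exposures of 3 at the lower ZnSO4 level and 1 of 5 at the LC25. A2C8 had -0.35, -0.29 and -0.58, all negative, and a fitted ratio of -0.41 ± 0.15 (SE; limma, adjusted p = 1). P4DH2, a positive member, had 1.29, 0.11 and -0.14, so that its ratio of 0.42 ± 0.20 (SE; limma, adjusted p = 1) rested on exposure 1, without which it was -0.02. A4D16, a negative member, had a positive ratio here of 0.27 ± 0.15 (SE; limma, adjusted p = 1), with 0.43, -0.04 and 0.42. The ratios of these 4 probes had the opposite sign when read as Cy5 over Cy3. The count was 3 without exposure 1 or exposure 3 of this group, 9 with all arrays and a random block and 10 with array quality weights. It was 12 with the 1/10 LC50 groups fitted alone (8.33%, against 4.87% of all probes).

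Under SiO NP at 1/10 LC50 limma called no member and no probe (0.00%) at an adjusted p of 0.05, and 1 member at an unadjusted p under 0.05 (0.694%, against 0.819%). This was A7E19, a negative member with a positive ratio here, at 0.64, 0.69 and -0.05. P3AG2 followed with 0.61, -0.22 and 0.43. On the negative side P4DB12 had -0.13, -0.33 and -0.15 and A2D22 had -0.31, -0.15 and -0.20. Both were negative in all 3 exposures and neither was called. The adjusted p of all 4 was 1 in limma, and P4DB12 turned positive when read as Cy5 over Cy3. A2D22 had -0.0623 under that reading. The count was 0 without exposure 1 and 2 without exposure 2.

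Differences between toxicants at 1/10 LC50 were tested directly in the same fit. Between ZnO NP and ZnSO4 limma called no member and no probe (0.00%) at an adjusted p of 0.05. At an unadjusted p under 0.05 it called 1 member (0.694%, against 1.66% of all probes). Its difference was positive, where 0.855% of all probes were called positive and 0.801% negative. That member was P13BG3, with 0.79, 0.34, 0.43 and -0.21 under ZnO NP and -0.41, -0.27 and -0.62 under ZnSO4. The groups did not overlap, and the fitted difference was 0.86 ± 0.23 (SE; limma, adjusted p = 1). A2C8, next among the positive differences, had 0.39 ± 0.21, and A1E14 and P4DH2 had -0.42 ± 0.22 and -0.50 ± 0.27 (SE; limma, adjusted p = 1 for each). Of these 4 probes P13BG3 alone kept its sign when read as Cy5 over Cy3, where its difference was 0.135. The count was 2 without exposure 1 or 4 of ZnO NP, and 3, 5 and 2 without exposures 1, 2 and 3 of ZnSO4. The median confidence interval of a member's difference extended 0.519 to either side.

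Between ZnO NP and SiO NP no member and no probe (0.00%) passed the adjusted threshold in limma. At an unadjusted p under 0.05, 5 members were called (3.47%, against 1.82%). The difference was positive in 1 (0.694%, against 0.983% of all probes) and negative in 4 (2.78%, against 0.837%). P4AB6 had the largest difference of those named, -1.17 ± 0.43 (SE), and its SiO NP exposures were 0.36, -0.36 and 0.08. A6C22 had -0.62, -0.32 and -0.22 in 3 ZnO NP exposures and 0.55, -0.17 and 0.41 under SiO NP, a difference of -0.75 ± 0.27. P1AD12 had a difference of 0.35 ± 0.15 and P13BB5 of 0.42 ± 0.24. The adjusted p of each was 0.999 in limma, and the median interval extended 0.526 to either side. P4AB6 and P1AD12 changed sign when read as Cy5 over Cy3, and A6C22 and P13BB5 fell to -0.0916 and 0.0472. The count was 8 without exposure 3 of ZnO NP and 3 without exposure 1 or 3 of SiO NP.

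The members were unevenly placed by the first letter of their identifiers, which the rule did not use. Identifiers starting with A covered 7 plates and 1469 of the probes kept, and held 7 positive and 42 negative members (3.34% of those kept). Identifiers starting with P covered 52 plates and 4195 probes kept, and held 56 positive and 45 negative members (2.41%). All probes kept leaned the same way: 27.8% of those starting with A had a positive median under ZnO NP at the LC25, and 54.1% of those starting with P, with medians of -0.12 and 0.03. The part of plate position in the members' signs was not tested beyond subtracting plate medians, after which 1008 probes met the rule and 62 of the 150 members were chosen again. Members lay on 44 of 59 plates, at most 14 on one (plate A6).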

How the data were processed

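RNA from exposed and unexposed Daphnia magna was compared on 2-colour arrays. The authors deposited 1 value per probe and array, taken here as log2 ratios. The log base, numerator, scanner, background correction, normalization and probe filter are not given in the sources used here. Array medians lay between -0.07 and 0.11. With another base all sizes would scale by the same factor.

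Exposure numbers in the labels were counted as replicates. The design text gives 3 exposures per condition, whereas the titles give 3 to 5. Nothing says whether they came from separate cultures, so p-values measure the spread between these samples.

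Averaged exposures of all 6 groups were fitted in limma 3.58.1 (R 4.3.3; lmFit, eBayes), with a dye term for single arrays, 2-sided tests and Benjamini-Hochberg adjustment. Refits were used for differences between groups. The procedure was tested on simulated data. Medians and counts were computed in Python 3.11.15 with pandas 2.3.3.

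Named probes are the 2 positive and 2 negative members with the largest absolute LC25 median, and in each comparison at 1/10 LC50 the 2 of each sign of ratio with the lowest p. The members and lists were chosen with earlier results of these data known. Gene lists were not used because probes are not paired with genes. Alternatives covered the rule, the sign reading, scaling, plates, the dye term, blocks, filters, weights and each exposure left out.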

Additional observations from a re-analysis of the deposited data

Results flagged for a closer look

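Of 60 sets of exposures of the named probes, 4 held a value that stood far from the others of its group, where chance flags about 1 in 20. P4AB6 under ZnSO4 at the LC25 had -1.47 in exposure 2, against -0.07 to 0.32 in the other 4. A6M17 under SiO NP at the LC25 had 0.59 in exposure 2, against -0.11 to -0.09 in the other 3. P4DH2 under ZnSO4 at the LC25 had 0.36 in exposure 3, against -0.25 to -0.08. P4DB12 under ZnO NP at 1/10 LC50 had -0.36 in exposure 3, against 0.05 to 0.14. All 4 exposures except the last were at the LC25. Only sets of 4 or more values were screened, so ZnSO4 and SiO NP at 1/10 LC50, with 3 exposures each, could not be flagged. The number of flags at the LC25 is therefore no result. What sets the flagged values apart was not tested.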

How the results depend on the processing

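Counts of members at an unadjusted p under 0.05 are given in the order ZnO NP (12), ZnSO4 (5), SiO NP (1), ZnO NP minus ZnSO4 (1) and ZnO NP minus SiO NP (5), all at 1/10 LC50. Percentages in brackets are the share of members tested, then that of all probes tested. Counts without them are not set against all probes, so a rise or fall in them is no result about the members. Same-numbered exposures of ZnO NP and another group correlated at -0.228 to 0.245 (2 of 6 over 0.1, other numbers 5 of 18), so pairing was not taken as given. Those of ZnSO4 and SiO NP, which were not compared, did at 0.114 to 0.398 (3 of 3, other numbers 1 of 6), a hint of pairing from the data and not the design. With the exposure number as a replicate block the counts were 18 (12.5%, 6.5%), 9 (6.25%, 3.62%), 9 (6.25%, 3.09%), 3 (2.08%, 2.55%) and 7 (4.86%, 2.31%). With array quality weights they were 23, 10, 6, 7 and 18, and with all arrays and a random block 21, 9, 1, 5 and 13. The 1/10 LC50 groups alone gave 19 (13.2%, 7.29%), 12 (8.33%, 4.87%), 1 (0.694%, 2.27%), 7 (4.86%, 5.17%) and 9. Scaled arrays gave 20 (13.9%, 7.59%), 7 (4.86%, 3.51%), 2 (1.39%, 2.27%), 3 (2.08%, 2.95%) and 8 (5.56%, 3.29%). A value in every exposure, with fewer probes tested, gave 3 (5.77%, 4.31%), 1 (1.92%, 1.56%), 0 (0%, 0.435%), 0 (0%, 1.3%) and 0 (0%, 1.09%). Plate medians subtracted gave 13 (9.03%, 5.22%), 6 (4.17%, 1.95%), 1 (0.694%, 0.983%), 3 (2.08%, 2.11%) and 5 (3.47%, 2.33%). No dye term gave 12 (8.33%, 5.08%), 5 (3.47%, 2.06%), 0 (0%, 0.819%), 1 (0.694%, 1.89%) and 4 (2.78%, 1.62%). The Cy5 over Cy3 reading gave 9 (6.25%, 9.15%), 2 (1.39%, 4.37%), 3 (2.08%, 3.04%), 1 (0.694%, 0.965%) and 1 (0.694%, 1.13%). Without 4 exposures whose swapped arrays correlated negatively, chosen after seeing the data, the counts were 11, 2, 0, 1 and 4. Leaving out 1 exposure gave 9 to 13, 3 to 7, 0 to 2, 1 to 5 and 3 to 8. Probes meeting the rule numbered 397 with a value in every exposure, 550 with 1 array per exposure, 893 with array medians subtracted (chosen after seeing the data) and 476 to 973 without 1 exposure. The members' medians at 1/10 LC50 of ZnO NP ranged from -0.02 to 0.14 (positive) and from -0.18 to -0.08 (negative) without 1 exposure, and over all 875 probes the negative median was -0.04. Read as Cy5 over Cy3, these medians were -0.10 and 0.08 (ZnSO4 -0.01 and 0.04, SiO NP positive members -0.01), and the values in the exposures left out were -0.0935, 0.00959, 0.0055 and -0.0505 for positive members and 0.146, -0.0226, -0.00941 and -0.154 for negative members. Scaled arrays gave 0.0114 for negative members in exposure 2. The Cy5 over Cy3 reading also turned P4AB6 at the LC25 (0.01), against 0 under ZnO NP (0.318) and ZnSO4 (0.222) and against SiO NP (0.171), A2C8 (0.114 under ZnSO4, -0.219 for the difference), A4D16 (-0.252), P4DB12 (0.272), A1E14 (0.0302), P1AD12 against SiO NP (-0.0436) and P4DH2 (-0.424 under ZnSO4, 0.347 for the difference). P4DH2 under ZnSO4 ranged from -0.0191 (without exposure 1, also among the 4 left out) to 0.7 without 1 exposure. The cause of these changes was not tested. The robust prior altered none of the counts.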
